A study of Triticum aestivum with 4 samples.

Results

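Pyruvate dehydrogenase E1 alpha (PDH-E1 ALPHA, AT1G01090) and acetyl-CoA carboxylase 1 (ACC1, AT1G36160) were followed in the roots and leaves of wheat under drought. Both genes were chosen with their drought and control reads in these libraries in view, so that their ratios are given as a description and were not tested. An isotig is a transcript put together by the assembler, an isogroup is the set of isotigs that share contigs, and an isotig was assigned to a gene by its best match in Arabidopsis thaliana. The members were all isotigs with either locus as best match, which numbered 10 of 32085 isotigs in roots and 5 of 19899 in leaves, 15 in all, and stand for 2 of 10707 genes matched in the series. The plants were Triticum aestivum of the Brazilian cultivar MGS1 Aliança, a cultivar adapted to the Cerrado, grown in a glasshouse with 3 plants to a pot and harvested at tillering, 5 weeks old. In the control group the soil was held at 100% of field capacity for 5 weeks. The drought group had 75% of field capacity for 2 weeks and then 3 weeks without any watering. Roots and leaves of the plants of a pot were pooled separately, which gave 4 libraries (root control, root drought, leaf control and leaf drought) and no replicate of any group. Every difference below is therefore one between 2 libraries, with no replicate check, and every interval covers counting error only.

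Acetyl-CoA is the starting block of fatty acids. In plastids it is made from pyruvate by a pyruvate dehydrogenase complex, in which the E1 subunits alpha and beta decarboxylate pyruvate, E2 moves the acetyl group to coenzyme A, and E3 reoxidises the lipoyl arm of E2. A separate complex in mitochondria feeds the citric acid cycle. Acetyl-CoA carboxylase then adds CO2 to acetyl-CoA with the help of biotin and forms malonyl-CoA, which is used by the fatty acid synthase of the plastid and, in the cytosol, for elongation of fatty acids to wax precursors and for flavonoids. ACC1 of Arabidopsis is the cytosolic enzyme, a single chain that holds the biotin carboxylase, the biotin carrier and, at its end, the carboxyltransferase. ACC2 is its plastid copy. Grasses differ from Arabidopsis in that their plastids rely on a multidomain carboxylase too, in place of the enzyme of separate subunits found in the plastids of most plants, and a best match to ACC1 or ACC2 does not give the compartment of the wheat enzyme.

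The libraries held 299134 to 319997 reads, of which 62623 to 108518 were counted in genes matched in Arabidopsis, the totals used for all ratios below. At these totals 10 reads correspond to between 9.22 and 16.0 reads per 100000 gene reads. All 5 leaf marker genes (Rubisco small subunit, Rubisco activase and antenna proteins) had isotigs in leaves and none in roots, and 3 of 5 root marker genes had isotigs in roots and none in leaves, while the Casparian strip genes CASP1 and CASP2 had no isotig in either tissue. Summed over the markers, leaves gave 10205 reads in control against 1636 in drought for the leaf list, and roots gave 72 against 1 for the root list. In these pooled tissues, fewer cells of a type and less RNA per cell cannot be told apart, and the part of these marker shifts in the results below was not tested. The median log2 ratio of drought to control over all genes was 0.07 in roots and 0.41 in leaves. It lay between -0.11 and 0.07 in roots and between -0.17 and 0.41 in leaves over the 5 kinds of totals tried, so that ratios in leaves are also given relative to it.

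PDH-E1 ALPHA was covered by 1 isogroup in each tissue. The 2 root isotigs, 1458 and 1441 bases long, matched residues 189 to 428 of the 428 residues of the Arabidopsis protein, with 87% identical residues. The 2 leaf isotigs, of 1483 and 1451 bases, matched residues 79 to 428 with 86% identity. Within a tissue both isotigs carried the same reads, 21 in control and 2 in drought in roots and 8 and 22 in leaves, so that they are 1 measurement and not 2. The annotation of the match places the enzyme in the chloroplast stroma and envelope, which sets it apart from the mitochondrial E1 alpha. No singleton, an unassembled read, matched this gene.

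ACC1 was spread over more isogroups, 5 in roots and 3 in leaves, and no single isotig spanned the 2254 residues of the protein. In roots, isotig11945 matched the start of the protein (residues 1 to 603, 84% identity), isotig11673 and isotig11225 the middle (675 to 1294 at 69% and 761 to 1301 at 57%), and the other 5 isotigs the carboxyltransferase end. Of these, isotig00996 matched residues 1781 to 2124 at 76% identity, and isotig02676 to isotig02679, which form 1 isogroup, began at residue 1926 and had 59% identity. Among the leaf isotigs, isotig07580 matched residues 257 to 627 (86%), isotig05647 residues 617 to 1282 (69%) and isotig05991 residues 1765 to 2254 (65%). The isogroups need not come from the same wheat gene. Those with 84% to 86% identity matched up to residue 627 and those with 57% to 69% from residue 617 on. Differences in identity can thus not be told apart from differences between parts of the protein. A single unassembled read matched ACC1 in each tissue, at residues 1300 to 1451 in roots and 21 to 168 in leaves, and these reads were not counted. No isotig and no singleton of either tissue had CAC1, BCCP2, CAC2 or CAC3 as best match, the 4 nuclear genes of the multisubunit carboxylase that were searched. Its subunit encoded in the plastid was not among the genes searched.

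**Figure D1:**
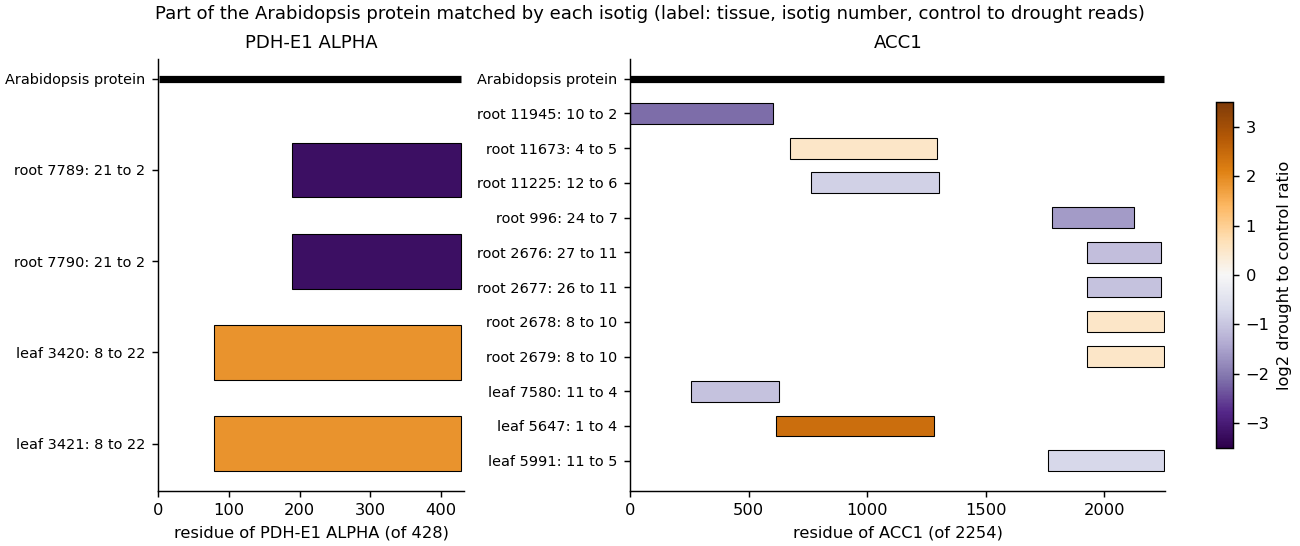
Each bar is 1 isotig, drawn over the residues (x axis) of the Arabidopsis protein PDH-E1 ALPHA (left) or ACC1 (right) that it matched, and labelled with the tissue, the isotig number and the reads in control and drought. Colour gives the log2 drought to control ratio, purple where drought is lower: both root isotigs of PDH-E1 ALPHA are purple and both leaf isotigs orange, while ACC1 holds both colours in each tissue.

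In roots, PDH-E1 ALPHA was represented by 21 control reads but only 2 drought reads. These correspond to 19.4 reads per 100000 gene reads (95% exact Poisson interval 11.98 to 29.6) and 2.09 (0.253 to 7.53), a level 9.28-fold lower in drought (95% exact binomial interval 2.27 to 81.6). The drought count lies below the 3 reads that a count of 0 would allow, so that the size of this ratio is poorly bounded. Among 4784 root genes with at least 10 reads, 242 had a lower ratio.

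In leaves the order was the opposite, with 8 reads in control and 22 in drought. The levels were 9.60 reads per 100000 gene reads (4.14 to 18.9) and 35.1 (22.0 to 53.2), a level 3.66-fold higher in drought (1.57 to 9.51). The log2 ratio was 1.87, and 1.46 relative to the median of all leaf genes. Of 2971 leaf genes with at least 10 reads, 514 had a higher ratio. The ratio in leaves was 2.44 to 3.05 with the other totals and 5.15 when all isotigs were summed for every gene, which changed the totals and left the read ratio of this gene as it was.

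Ordered by level, PDH-E1 ALPHA was highest in drought leaves, followed by control roots, control leaves and drought roots. The intervals of each library and its neighbour in this order overlapped, whereas those of control and drought did not overlap within either tissue. Because the gene was chosen with these reads in view, this separation is no test. Levels in roots and leaves come from separate assemblies, with separate totals, and are set side by side only as a description. The root and the leaf isotigs need not come from the same wheat gene.

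ACC1 had more reads in roots than in leaves, and fewer in drought than in control in both. In roots it had 77 reads in control and 31 in drought, 71.0 (56.0 to 88.7) and 32.3 (22.0 to 45.9) reads per 100000 gene reads, a level 2.20-fold lower in drought (1.43 to 3.45). In leaves it had 23 reads in control and 13 in drought, 27.6 (17.5 to 41.4) and 20.8 (11.1 to 35.5) per 100000, which is 1.33-fold lower with an interval from 0.646 to 2.86 that includes no difference. Only the root control library stood apart, its interval lying above those of the other 3, which overlapped each other. The root level sums 5 isogroups and the leaf level 3. Per kilobase of isotig, control roots and control leaves stood at 6.39 and 5.65 reads per 100000 gene reads. ACC1 was chosen with these reads in view, so this separation is no test. Relative to the median of all genes, the log2 ratio was -1.20 in roots and -0.82 in leaves. Of the genes with at least 10 reads, 1026 of 4784 had a lower ratio in roots and 778 of 2971 in leaves.

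**Figure D2:**
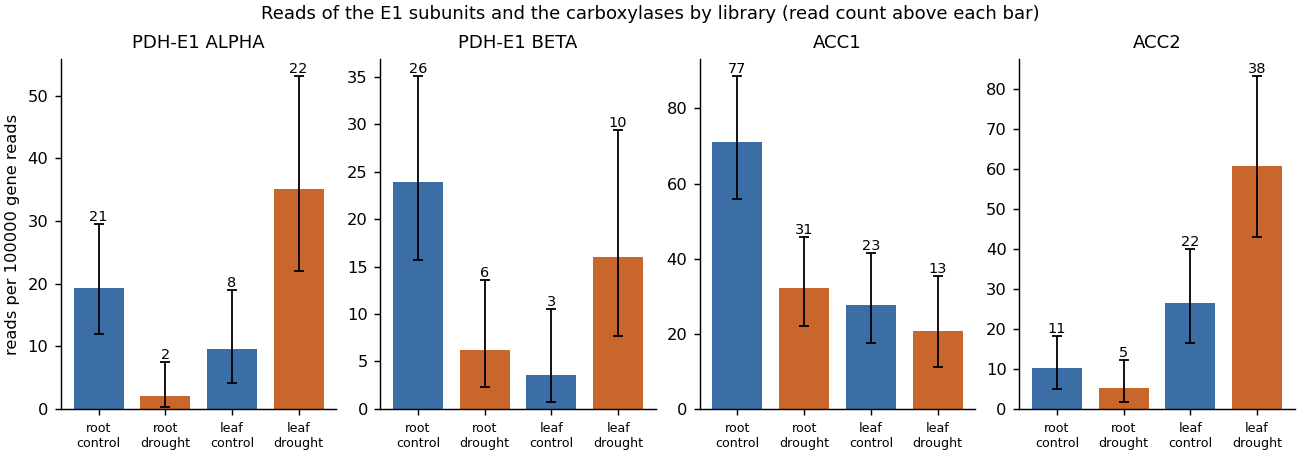
Reads per 100000 gene reads (y axis, own scale in each panel) of PDH-E1 ALPHA, PDH-E1 BETA, ACC1 and ACC2 in the 4 libraries, blue for control and orange for drought, with 95% exact Poisson intervals and the read count above each bar. The tallest bar is the leaf drought library for PDH-E1 ALPHA (22 reads) and ACC2 (38 reads) and the root control library for PDH-E1 BETA (26 reads) and ACC1 (77 reads).

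Per kilobase of isotig, PDH-E1 ALPHA stood at 13.3 and ACC1 at 6.39 reads per 100000 gene reads in control roots, against 1.43 and 2.91 in drought roots. In leaves these values were 6.47 and 5.65 in control and 23.7 and 4.25 in drought. On this scale of level per length, the value of PDH-E1 ALPHA was above that of ACC1 in both control libraries and in drought leaves, and below it in drought roots. No interval was computed on this scale, and PDH-E1 ALPHA rests on 8 reads in control leaves and 2 in drought roots. The order was not tested. The length of ACC1 in roots, 11098 bases, sums 5 isogroups, some of which matched the same residues.

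The isotigs of ACC1 did not all share 1 direction. In roots, the isogroup at the start of the protein had 10 reads in control and 2 in drought, 4.42-fold lower (0.942 to 41.5). Toward the end of the protein, isotig00996 had 24 and 7, and isotig02676 had 27 and 11 reads. By contrast isotig11673, in the middle, had 4 and 5 reads, while isotig11225, which overlaps the same residues, had 12 and 6. Within the isogroup of 4 isotigs, isotig02678 and isotig02679 each had 8 control and 10 drought reads, whereas isotig02677 had 26 and 11, so that the ratio turned between isotigs of the same isogroup. In leaves, isotig07580 had 11 reads in control and 4 in drought, isotig05991 had 11 and 5, and isotig05647 had 1 and 4. The intervals of all 3 leaf ratios included no difference, and in roots only those of isotig00996 (3.03-fold lower, 1.27 to 8.33) and isotig02676 (2.17-fold lower, 1.04 to 4.85) excluded it. ACC1 was chosen with these reads in view, so these intervals are a description and no test.

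The isogroup of isotig00996 held 8 further isotigs whose best match was another gene, AT1G71840. Over the whole isogroup the reads were 36 in control and 30 in drought, and the AT1G71840 isotig with most reads had 13 and 27. Without isotig00996, ACC1 in roots had 53 reads in control and 24 in drought, a level 1.95-fold lower. Counting all isotigs instead of 1 per isogroup gave 119 and 62 reads, 1.77-fold lower.

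**Figure D3:**
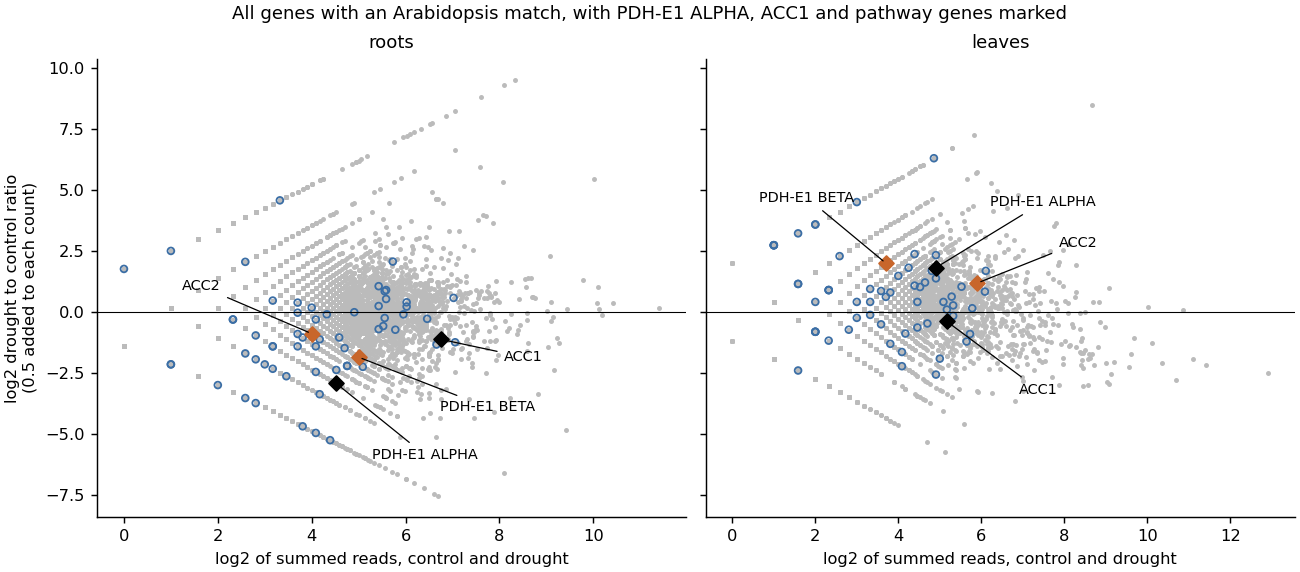
Log2 drought to control ratio (y axis, 0.5 added to each count) against the log2 of the summed control and drought reads (x axis) for all genes matched in Arabidopsis (grey), in roots (left) and leaves (right). Black diamonds mark PDH-E1 ALPHA and ACC1, orange diamonds PDH-E1 BETA and ACC2, and blue circles the other pathway genes: in roots all 4 diamonds lie below 0, and in leaves ACC1 alone does.

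ACC2, the nearest relative of ACC1, had 11 reads in control roots and 5 in drought roots, 1.94-fold lower (0.623 to 7.14), and 22 and 38 in leaves, 2.30-fold higher (1.33 to 4.08). It was not called in either tissue, although in leaves it was called up-regulated with adjusted p under 0.05 and with the sum of all isotigs. The largest leaf isotig of ACC2, of 4039 bases, had 12 reads in control and 24 in drought. In leaves the levels of ACC2 and ACC1 were thus close in control, 26.4 and 27.6 reads per 100000 gene reads, and stood at 60.7 and 20.8 in drought. Counted together, both carboxylases had 88 and 36 reads in roots, 2.16-fold lower (1.45 to 3.28). In leaves they had 45 and 51 reads, a ratio of 1.51 (0.990 to 2.30), so that the direction given for ACC1 in leaves turns when reads are not divided between the copies. The other measured genes of the carboxylase list were HCS1 and BIO2. HCS1, which attaches biotin to carboxylases, had 7 and 2 reads in roots, and BIO2, which makes biotin, had 5 and 1. In leaves HCS1 had 3 and 0 reads and BIO2 had 4 and 1. Both were named after their values were seen, and neither was called in either tissue.

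The partners of PDH-E1 ALPHA in the plastid complex had fewer reads in drought roots. Of 4 partners measured in roots, 2 fell and 2 were not called, against 5.17% of all root genes called down-regulated and 3.63% up-regulated. PDH-E1 BETA, the other subunit of E1, fell from 26 reads to 6, 3.83-fold (1.54 to 11.4). LPD1, the E3 subunit, fell from 29 to 5, 5.13-fold (1.96 to 17.0). The E2 subunits LTA2 (13 and 4 reads) and EMB3003 (15 and 2 reads), named after their values were seen, were not called, although EMB3003 was called down-regulated with the stated library totals, with size factors and with adjusted p under 0.05. The median log2 ratio of the 4 partners was -2.05 beside 0.07 for all root genes. PDH-E1 BETA consisted of 2 isogroups in roots that differed, 1 with 22 reads in control and 0 in drought and 1 with 4 and 6. Its call was lost with Fisher's exact test and with the exact binomial test, and both calls were lost when a coefficient of variation of 0.2 was assumed in edgeR.

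In leaves the same list had 4 partners measured and none was called, beside 5.06% of all leaf genes called up-regulated and 2.58% down-regulated. All 4 had more reads in drought, on low counts, while 35.4% of all leaf genes had a ratio below 1. PDH-E1 BETA had 3 reads in control and 10 in drought (ratio 4.44, interval 1.14 to 25.1), LTA2 had 5 and 7, the second E3 gene AT4G16155 had 4 and 6, and LPD1 had 0 and 2. The median log2 ratio was 1.47, and 0.95 with LPD1 at its bound, beside 0.41 for all leaf genes.

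The difference between tissues was tested for PDH-E1 BETA, which is not a member. This gene was listed, and the test chosen, with earlier results of these data known. Its log2 drought effect was 3.85 higher in leaves than in roots (SE 1.09, Benjamini-Hochberg adjusted p = 0.017 over the genes of both tissues), where 4.15% of 5498 genes passed an adjusted p under 0.05. This z compares 4 libraries and holds no spread between pots. The only leaf isogroup of PDH-E1 BETA matched residues 78 to 406 at 83% identity, near the root isogroup with 4 and 6 reads (72 to 406, 82%), whose ratio was 1.70 (0.402 to 8.18), while the root isogroup with 22 and 0 reads had 88% identity (79 to 406). Whether the difference sets the same wheat gene against itself was not tested. For LTA2 the difference was 2.27 (SE 1.13, adjusted p = 0.276) and for ACC2 2.07 (SE 0.84, adjusted p = 0.157), neither past the threshold. The corresponding difference of PDH-E1 ALPHA, 5.09 between its log2 ratios of -3.21 and 1.87, was not tested because the gene was chosen by these ratios.

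Of the 9 genes of the mitochondrial complex, all measured in roots, none was called there, beside the 3.63% and 5.17% of all root genes called up-regulated and down-regulated. Their median log2 ratio was 0.53, or 0 with the 3 genes that lacked reads in a library at their bound. MAB1, the mitochondrial E1 beta, had the most reads over the 4 libraries and was not called, with 34 and 28 in roots and 30 and 25 in leaves. IAR4, a mitochondrial E1 alpha, rose in leaves from 0 to 29 reads, at least 9.81-fold (95% exact lower limit at these totals, or 12.9-fold against 3 reads in the control library). This was the only gene of the list called in leaves, 1 of 9 beside 5.06% of all leaf genes called up-regulated, and it was called under all 12 alternatives. In roots IAR4 had 0 and 10 reads. It was not called there with 0 set to 1, but was called up-regulated with 0 set to 0.5, with adjusted p under 0.05, with Fisher's exact test and with the exact binomial test. The reads of E1 alpha in mitochondria were divided between isogroups with opposite ratios, noticed after the values were seen. In roots, an isogroup matched to the other mitochondrial E1 alpha (AT1G59900) had 21 reads in control and 8 in drought, while isotig08373 of a second isogroup, also matched to AT1G59900, had 0 and 19, and its neighbour isotig08374, matched to IAR4, had 0 and 7. In leaves AT1G59900 had 13 and 5. The median of the list in leaves was 0.41, equal to that of all leaf genes.

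Upstream of the complex, plastid pyruvate kinase supplies pyruvate. PKP-BETA1 fell in both tissues, from 23 reads to 4 in roots (5.08-fold, 1.74 to 20.2) and from 27 to 5 in leaves (4.06-fold, 1.54 to 13.5), and PKp3 fell in roots from 17 reads to 0, at least 3.65-fold (exact lower limit, or 5.01-fold against 3 reads). In leaves PKp3 had 38 and 12 reads. It was not called there with the gene sums as totals, but was called down-regulated with the stated library totals, TMM, size factors, adjusted p under 0.05 and the isotig with most reads alone. The leaf call of PKP-BETA1 was lost with Fisher's exact test, the exact binomial test and the sum of all isotigs. ACS, the synthetase that makes acetyl-CoA from acetate, had the most reads of the list, 51 and 37 in roots and 29 and 39 in leaves, and was not called. Among the alternatives it was called up-regulated in leaves with the sum of all isotigs only. Of 7 genes of the list measured in roots, 2 fell and 5 were not called (median log2 ratio -1.04), beside 5.17% of all root genes that fell, and of 6 in leaves 1 fell and 5 were not called (-0.33), beside 2.58% of all leaf genes.

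The fatty acid synthase of the plastid, which uses acetyl-CoA and malonyl-CoA, had 11 genes measured in roots, of which 5 fell, 6 were not called and none rose, beside 5.17% of all root genes that fell and 3.63% that rose. MOD1, the enoyl-ACP reductase, fell from 21 reads to 0, at least 4.60-fold (exact lower limit, or 6.19-fold against 3 reads). KASI, which condenses malonyl units onto the chain, fell from 23 to 4 (5.08-fold, 1.74 to 20.2). ACP2, an acyl carrier protein with 75 and 26 reads, fell 2.55-fold (1.61 to 4.15) with 5 isogroups. The call of ACP2 was lost with the isotig with most reads alone. The 2 other genes that fell were KAS III, the first condensing enzyme, with 14 and 0 reads, and the reductase AT1G24360 with 20 and 3, named after their values were seen. The call of AT1G24360 was lost with Fisher's exact test and the exact binomial test. Only FATB, an acyl-ACP thioesterase that releases finished fatty acids, had a ratio above 1, with 15 and 28 reads. It was called up-regulated with the sum of all isotigs only. The other 10 genes had a ratio below 1, beside 48.9% of all root genes. The median log2 ratio of the list was -2.32, and -2.04 with the 5 genes that lacked reads at their bound, beside 0.07 for all root genes. In leaves 8 genes were measured, ACP4 fell from 27 reads to 3 (6.76-fold, 2.08 to 34.8), and the other 7 were not called, with a median of -0.31, beside 2.58% of all leaf genes that fell. The call of ACP4 was lost with the isotig with most reads alone. MOD1 had no isotig in leaves.

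**Figure D4:**
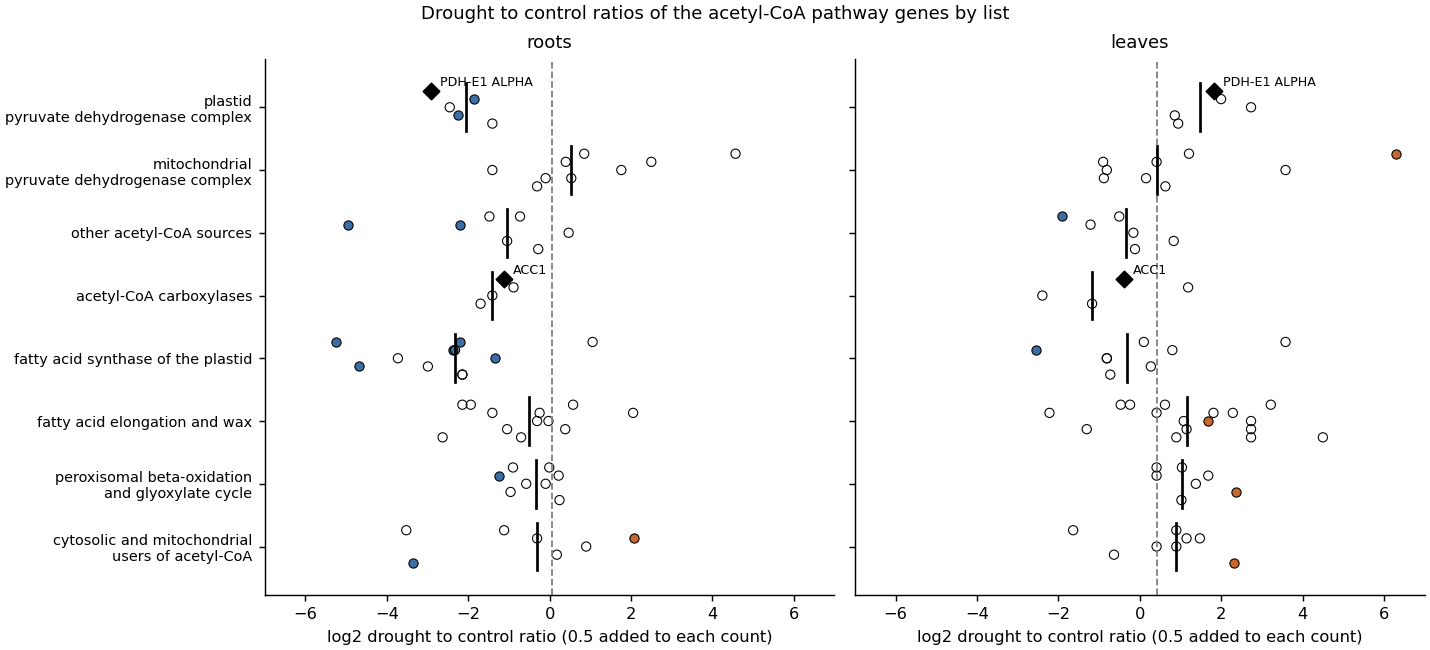
Log2 drought to control ratio (x axis, 0.5 added to each count) of each measured gene of the 8 lists (rows) in roots (left) and leaves (right). Circles are filled blue where the gene fell, orange where it rose and unfilled where it was not called, black diamonds mark PDH-E1 ALPHA and ACC1, black bars the median of the other genes of a list and the dashed line the median of all genes: the bars of the plastid complex lie at -2.05 in roots and 1.47 in leaves.

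Among genes of elongation and wax synthesis, which use malonyl-CoA in the cytosol, none of 12 was called in roots (median log2 ratio -0.50). Of all root genes 3.63% were called up-regulated and 5.17% down-regulated. In leaves LACS8, a long-chain acyl-CoA synthetase and the gene of the list with most reads, rose from 20 to 49 reads (3.26-fold, 1.90 to 5.79), and the other 16 genes were not called, beside 5.06% of all leaf genes that rose. This call was lost with TMM totals and with the isotig with most reads alone. Under some alternatives LACS9 was called down-regulated in both tissues, and KCS2 and KCS11 up-regulated in leaves. The leaf median of 1.15 was 0.41 with the 5 genes lacking reads in a library at their bound, the median of all leaf genes. Peroxisomal beta-oxidation returns acetyl-CoA from fatty acids. Here PKT3, the thiolase that releases it, fell in roots from 97 to 36 reads (2.38-fold, 1.61 to 3.60). That call was lost with the isotig with most reads alone. The other 7 genes of the list measured in roots were not called, beside 5.17% of all root genes that fell. In leaves PKT3 had 8 and 20 reads and was called up-regulated only with adjusted p under 0.05 and with the sum of all isotigs. ACX4, an acyl-CoA oxidase, rose in leaves from 4 to 17 reads (5.66-fold, 1.85 to 23.1), a call that was lost with TMM, with the stated library totals and with size factors. The other 6 genes of this list measured in leaves were not called, beside 5.06% of all leaf genes that rose. Of the 7 leaf genes of this list none had fewer reads in drought than in control, and ACX2 (5 and 5) and ACX3 (4 and 4) had equal reads. Over all leaf genes 35.4% had a ratio below 1. The log2 drought effect of PKT3 was 2.92 higher in leaves than in roots (SE 0.65, Benjamini-Hochberg adjusted p = 0.00073). PKT3 too was listed, and the test chosen, with earlier results of these data known.

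Other users of acetyl-CoA and malonyl-CoA gave calls in both directions. Of 7 measured in roots 1 rose and 1 fell, beside 3.63% and 5.17% of all root genes. Of 8 measured in leaves 1 rose, beside 5.06% of all leaf genes. In roots HMG1, the HMG-CoA reductase of isoprenoid and sterol synthesis, rose from 11 to 42 reads (4.32-fold, 2.19 to 9.30). It was the only pathway gene called up-regulated there with 0 set to 1, 1 isotig counted per isogroup and an unadjusted p under 0.001. TT4, chalcone synthase, which joins malonyl-CoA to flavonoids, fell from 17 reads to 1 (15.0-fold, 2.35 to 628). HMGS, which precedes HMG1 in that pathway, rose in leaves from 6 to 24 reads (5.32-fold, 2.12 to 15.9), a call that was lost with TMM totals. ATCS, the mitochondrial citrate synthase, had 18 and 30 reads in roots and 15 and 7 in leaves and was not called. Among the alternatives it was called up-regulated in roots with the sum of all isotigs only.

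Over the 96 listed genes other than PDH-E1 ALPHA and ACC1, 61 were measured in roots, of which 11 fell (18.03%), 1 rose (1.64%) and 49 were not called, beside 5.17% and 3.63% of all root genes, with a median log2 ratio of -0.96 (-0.74 with genes lacking reads at their bound) beside 0.07 for all genes. In leaves 62 were measured, of which 4 rose (6.45%), 2 fell (3.23%) and 56 were not called, shares near the 5.06% and 2.58% of all leaf genes, with a median of 0.82 (0.41 at the bounds) beside 0.41. With TMM totals the leaf calls became 1 up and 5 down, and 3 up and 3 down with the stated library totals. Over all called leaf genes the share that rose went from 66.2% to 33.5% with TMM. An assumed coefficient of variation of 0.2 in edgeR left 4 root calls and 1 leaf call, and 0.4 left 0 and 1. The shares of all genes are over 9196 root and 7009 leaf genes. A minimum of 10 reads, met by 4784 and 2971 of them, left the numbers of calls over all genes the same. Many genes in these shares thus had too few reads to be called, and shares among the others were not computed.

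The genes with the profile most like each member were sought among 1990 genes with at least 10 reads in each tissue, by Euclidean distance between log2 levels over the 4 libraries after centring, a description over 4 points only. For PDH-E1 ALPHA these were SHM7 (9 and 1 reads in roots, 5 and 10 in leaves), CPK1 (23 and 2, 11 and 18), NAD-ME2 (17 and 2, 6 and 13), Plsp2A (9 and 1, 7 and 15) and AT1G27000 (11 and 2, 8 and 16). Their distances were 0.466 to 0.748 log2 units, against a median of 3.08 over the genes compared. For each member the 5 genes with the smallest distances were taken, so that they lie below the median by construction. PDH-E1 BETA ranked 276 by this measure. For ACC1 the nearest were TOM2A (37 and 14 reads in roots, 10 and 7 in leaves), PLA2A (27 and 8, 7 and 4), AT1G19110 (33 and 12, 8 and 6), UBC11 (30 and 16, 10 and 5) and SERK1 (38 and 17, 9 and 6), at distances of 0.241 to 0.329 against a median of 1.97. None of these 10 genes belongs to the 8 lists. The lists hold only 98 loci, and their share among the 1990 genes was not computed, so this count is not read as a result.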

How the data were processed

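The 4 libraries were sequenced by the authors on a Roche GS FLX Titanium, and the reads of each tissue were assembled together into isotigs (putative transcripts), which fall into isogroups (putative genes). The deposited tables give raw read counts per isotig, per isogroup and per library, in which reads of a contig shared by several isotigs stand in each of them. For each isotig and each singleton (an unassembled read), the authors deposited its best BLAST hit with the bit score and the percent of identical residues. Matches in Arabidopsis with an E-value up to 0.001 were used here. A gene was taken as all isotigs with 1 Arabidopsis locus, counting in each isogroup the isotig with most reads, and counts were divided by the sums of these gene counts, 62623 to 108518 reads per library. The authors' own fold changes, z-scores, p-values and q-values were not used, nor were the summed Gene Ontology weights. All per-sample columns used belong to the 4 libraries.

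PDH-E1 ALPHA and ACC1, the 8 gene lists and the tests were chosen with earlier results of these data known. Their drought to control ratios are therefore given without a test, with 95% exact intervals that cover counting error only. Of the other pathway genes, those named are the 3 called genes with the largest absolute z of each list and tissue and the gene of each list with most reads. Any others were named after their values were seen. These genes were compared by the MARS model of DEGseq, the model of the study, written again in Python 3.11.15 (numpy 2.4.6, scipy 1.17.1, pandas 2.3.3) and fitted to all genes of a tissue at a two-sided unadjusted p under 0.001, a count of 0 being set to 1. To compare roots with leaves, the difference of the 2 log2 ratios was divided by its standard error under Poisson counts (0.5 added to each count), with Benjamini-Hochberg adjustment over 5498 genes. The alternatives were other totals, including TMM (edgeR 4.0.16) and the size factors of DESeq2 1.42.0 (in R 4.3.3), other counts per gene, 0 set to 0.5, a minimum of 10 reads, adjusted p under 0.05, Fisher's exact test, an exact binomial test, and edgeR's exact test, in which the coefficient of variation was assumed to be 0.2 or 0.4. The exact binomial test, the count of ACC1 with ACC2 and the count without a mixed isogroup were added after the data were seen. Figures were drawn with matplotlib 3.10.9.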

Additional observations from a re-analysis of the deposited data

Results flagged for a closer look

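In PDH-E1 ALPHA, drought and control differed in opposite directions in roots and leaves: its log2 ratio in leaves was 5.09 above that in roots. This difference was not tested, since these ratios served to choose the gene, and each tissue has 1 library per condition.

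PDH-E1 BETA and PKT3 had drought effects that differed between the tissues by the z over the 4 libraries. Both were listed, and the test chosen, with earlier results of these data known. The log2 effect in leaves was 3.85 above that in roots for PDH-E1 BETA and 2.92 above for PKT3. The leaf value of PDH-E1 BETA rests on 13 reads of 1 isogroup, and its root value pools an isogroup with 22 and 0 reads and another with 4 and 6. Whether both tissues show the same wheat gene was not tested.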

How the results depend on the processing

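The direction of PDH-E1 ALPHA in roots and leaves and of ACC1 in roots was the same under all alternatives run, with log2 ratios from -3.39 to -3.21, 1.28 to 2.36 and -1.31 to -0.82. For PDH-E1 ALPHA the alternatives changed only the totals and left its read ratio as it was, so they did not put its direction to a test. The direction of ACC1 in leaves turned from -0.41 to 0.081 with the sum of all isotigs and to 0.59 with ACC1 and ACC2 counted together. The first uses other totals and the second other reads. In roots the 12 calls among pathway genes became 4 and 0 with edgeR at a coefficient of variation of 0.2 and 0.4, and were 10 to 15 under the other 10 alternatives. In leaves the 6 calls became 1 and 1 with edgeR, 11 with adjusted p under 0.05 and 14 with the sum of all isotigs (13 up and 1 down), and were 5 to 7 under the other 8. Over all genes, 334 up and 475 down in roots became 550 and 692 with adjusted p under 0.05, 150 and 244 or 46 and 63 with edgeR, and 355 and 181 in leaves became 603 and 242, 173 and 72 or 33 and 4, and 163 and 323 with TMM. The sum of all isotigs repeats shared reads.

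Leaving out a library was not possible. No paired analysis was possible because each group has only 1 library. The drought counts of PDH-E1 ALPHA and ACC1, 2 to 31 reads, limit the precision, and no library measures the spread between pots.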
